A study of Mus musculus with 19 samples.

Results

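The chemokines and their receptors were followed in the cerebellum of mice with conditional knockout of Gsα. Of 22193 genes in the deposited tables, 55 had a symbol that starts with Ccl, Cxcl, Ccr or Cxcr and a number, and the 49 above 0 FPKM (fragments normalized to transcript length and to mapped fragments) in at least 3 of 19 libraries are counted here as members. They comprise 19 of 24 CC ligands, 12 of 13 CXC ligands, 11 of 11 CC receptors and 7 of 7 CXC receptors. Of the other 6, Ccl21b, Ccl21c, Ccl27b, Ccl28 and Cxcl17 are listed at 0 in every library, and Ccl26 was above 0 in 1 library.

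All mice were C57BL/6 at postnatal day 60, and every library was made from cerebellum. The labels do not state that each library is a separate animal, so p-values measure the spread between these libraries. Olig1-Gnas denotes 8 conditional Gsα knockouts made with Olig1Cre, hGFAP-Gnas denotes 8 made with hGFAPCre, and Ctrl denotes 3 wild-type mice that serve both comparisons. Gsα is the product of Gnas and couples receptors to the making of cyclic AMP. Olig1 is a transcription factor gene of the oligodendrocyte lineage, and hGFAPCre uses the promoter of human GFAP; the labels do not say which cells recombined. The word tumor stands in the name of the deposited hGFAP-Gnas table and not in its column headings.

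Chemokines are small secreted proteins that steer migrating cells, and the CC and CXC families are named for adjacent cysteines or cysteines set apart by a single residue. Their receptors signal mainly through inhibitory G proteins, which lower cyclic AMP where Gsα raises it. In the growing cerebellum, Cxcl12 from the meninges holds granule neuron progenitors at the surface through Cxcr4, and in the injured brain chemokines of microglia, astrocytes and vessels draw leukocytes.

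FPKM summed to 603067 to 689165 in Olig1-Gnas, 505739 to 659634 in hGFAP-Gnas and 508329 to 525832 in Ctrl libraries. Totals of reads are not in the sources used here, and steps among low values put 10 libraries at 0.824 to 1.06 of the depth of Ctrl 2 and the other 9, Olig1-Gnas 1 to 4, hGFAP-Gnas 5 to 8 and Ctrl 3, at 0.268 to 0.435. Y-linked Ddx3y was at 1 FPKM or more in 2 of 8 Olig1-Gnas, 7 of 8 hGFAP-Gnas and 2 of 3 Ctrl libraries. Gnas itself is listed at 0 in Olig1-Gnas 1, 6 and 8, in every hGFAP-Gnas library except number 5 and in Ctrl 3. Elsewhere it had 24 to 121 FPKM in Olig1-Gnas, 40.9 FPKM in hGFAP-Gnas 5, and 651 and 798 FPKM in Ctrl 1 and 2. A listed 0 can be a failed estimate, so loss of the targeted transcript could not be checked library by library. Markers of mature granule neurons summed to 103 to 622 FPKM in Olig1-Gnas, 193 to 1474 FPKM in hGFAP-Gnas and 1795 to 2413 FPKM in Ctrl. A few libraries stood apart. Olig1-Gnas 1 and 2 held high lymphocyte markers, and hGFAP-Gnas 1 had the lowest sum of microglia markers among the knockouts. Choroid plexus markers summed to 1255 FPKM in Ctrl 3, against 7.55 and 25.3 FPKM in Ctrl 1 and 2. They also summed to 2397 FPKM in Olig1-Gnas 8 and to 936 and 351 FPKM in hGFAP-Gnas 8 and 6, with at most 191 FPKM in any other knockout library.

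Most chemokines that could be tested were higher in both knockouts than in Ctrl, and few were lower. In Olig1-Gnas against Ctrl, 26 of the 49 members passed the filter of 1 FPKM in at least 3 libraries, 17 rose, 2 fell and 7 did not pass the test, with limma and an adjusted p under 0.05. Over all genes tested in that comparison 36.2% rose and 23.6% fell. In hGFAP-Gnas against Ctrl, 28 members were tested, 19 rose, 1 fell and 8 did not pass, beside 26.1% and 12.8% of all genes tested. The median log2 fold of the tested members was 1.45 in Olig1-Gnas and 1.74 in hGFAP-Gnas, against 0.22 and 0.19 over all genes tested.

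Part of this count is set by the filter, since a gene silent in Ctrl can pass it only by being high in knockouts. Of the 15 members tested in Olig1-Gnas with every Ctrl library under 1 FPKM, 11 rose, against 73.6% of all such genes. Of the 17 in hGFAP-Gnas, 14 rose, against 73.7%. These shares are near the background and are no result about chemokines, and the same filter bears on the median folds. Among members at 1 FPKM or more in a Ctrl library, 6 of 11 rose and 2 of 11 fell in Olig1-Gnas, beside 33.6% and 25.3% of such genes. In hGFAP-Gnas 5 of 11 rose and 1 fell, beside 22.8% and 13.7%.

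**Figure D1:**
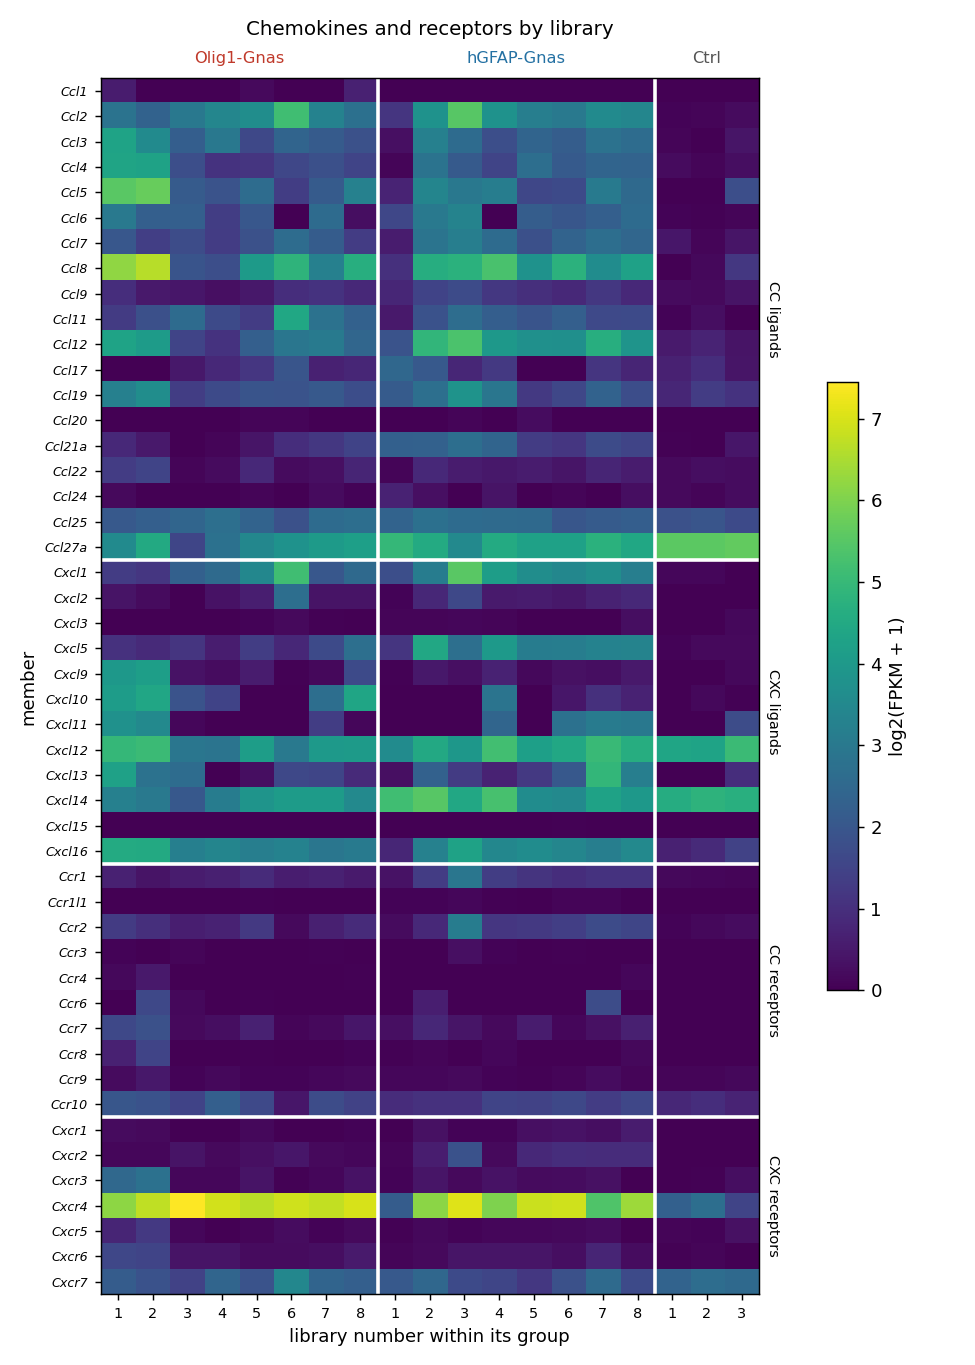
Level of members in every library, as log2(FPKM + 1), with libraries of Olig1-Gnas, hGFAP-Gnas and Ctrl from left to right and members ordered by role. Cxcr4 reaches the highest level, Ccl27a is highest in Ctrl, and hGFAP-Gnas 1 lies within or below the range of Ctrl for Ccl3, Ccl4, Ccl5, Ccl8, Cxcl16 and Cxcr4 and above it for Ccl2, Ccl12, Cxcl1 and Cxcl5.

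In what follows, levels in FPKM of a knockout group are the lowest, the median and the highest of its 8 libraries, and those of Ctrl are Ctrl 1, 2 and 3. Folds are differences in log2(FPKM + 1) ± SE, a scale that understates changes of low genes, and adjusted p-values are limma's over all genes tested.

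The level of Ccl2 was 4.06, 7.87 and 34.9 FPKM in Olig1-Gnas, 1.20, 10.2 and 44.9 FPKM in hGFAP-Gnas and 0.0620, 0.0629 and 0.168 FPKM in Ctrl. This monocyte chemoattractant acts through Ccr2. All 8 libraries of either knockout exceeded every Ctrl library, with Olig1-Gnas 6 and hGFAP-Gnas 3 far above the rest of their groups. Ccl2 rose by 3.17 ± 0.47 (adjusted p = 0.000118) in Olig1-Gnas and by 3.29 ± 0.65 (adjusted p = 0.00808) in hGFAP-Gnas. In Olig1-Gnas Ccl12 had 1.15, 5.52 and 19.1 FPKM, in hGFAP-Gnas 2.71, 14.0 and 39.5 FPKM, and in Ctrl 0.449, 0.684 and 0.304 FPKM. Ccl12 is a mouse monocyte chemoattractant that also uses Ccr2. Both knockouts lay above Ctrl with no overlap, and the gene rose by 2.16 ± 0.60 (adjusted p = 0.00863) in Olig1-Gnas and by 3.45 ± 0.57 (adjusted p = 0.00613) in hGFAP-Gnas. Without Olig1-Gnas 1 and 2 the first rise was 1.66 ± 0.42 (adjusted p = 0.00657). Ccl7 stood at 1.49, 2.46 and 5.18 FPKM in Olig1-Gnas, at 0.485, 4.77 and 8.11 FPKM in hGFAP-Gnas and at 0.376, 0.0637 and 0.340 FPKM in Ctrl. Ccl7, also a ligand of Ccr2, rose by 1.48 ± 0.28 (adjusted p = 0.000719) and by 1.99 ± 0.45 (adjusted p = 0.0106) in the same order of knockouts, again with no overlap between a knockout and Ctrl. Without Ctrl 2 the call of Ccl7 in hGFAP-Gnas was lost (adjusted p = 0.0545).

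Ccl8 had 2.48, 20 and 98.2 FPKM in Olig1-Gnas, 1.06, 21.0 and 38.2 FPKM in hGFAP-Gnas and 0, 0.123 and 1.32 FPKM in Ctrl. In mice Ccl8 is an agonist of Ccr8. Its 2 highest values were those of Olig1-Gnas 1 and 2, at 72.6 and 98.2 FPKM, while hGFAP-Gnas 1 lay below Ctrl 3. The gene rose by 3.71 ± 1.00 (adjusted p = 0.00775) in Olig1-Gnas, and by 2.96 ± 0.72 (adjusted p = 0.00600) when Olig1-Gnas 1 and 2 were left out. In hGFAP-Gnas it rose by 3.56 ± 0.73 (adjusted p = 0.00885), and the call was lost without Ctrl 2 (adjusted p = 0.0502). The level of Ccl11 was 1.46, 3.25 and 20.5 FPKM in Olig1-Gnas, 0.415, 2.76 and 5.38 FPKM in hGFAP-Gnas and 0.0430, 0.218 and 0 FPKM in Ctrl. Ccl11 is eotaxin, which attracts eosinophils through Ccr3. Every library of either knockout exceeded Ctrl, the highest being Olig1-Gnas 6. The rise was 2.17 ± 0.55 (adjusted p = 0.00495) in Olig1-Gnas and 1.73 ± 0.36 (adjusted p = 0.00910) in hGFAP-Gnas.

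Ccl3 and Ccl4 were highest in Olig1-Gnas 1 and 2. In Olig1-Gnas Ccl3 had 2.06, 3.94 and 18.8 FPKM, in hGFAP-Gnas 0.246, 4.66 and 8.37 FPKM, and in Ctrl 0.0637, 0 and 0.345 FPKM. Ccl4 stood at 1.11, 2.23 and 19.5 FPKM in Olig1-Gnas, at 0.0790, 3.74 and 6.15 FPKM in hGFAP-Gnas and at 0.164, 0.0830 and 0.222 FPKM in Ctrl. Both attract monocytes and T cells. Ccl3 reached 18.8 and 10.9 FPKM in Olig1-Gnas 1 and 2 and Ccl4 reached 19.5 and 18.5 FPKM there, and in hGFAP-Gnas 1 both lay within the range of Ctrl or just below it. Ccl3 rose by 2.46 ± 0.50 (adjusted p = 0.00118) in Olig1-Gnas and by 2.07 ± 0.49 (adjusted p = 0.0121) in hGFAP-Gnas. Ccl4 rose by 1.99 ± 0.71 (adjusted p = 0.0302) in Olig1-Gnas and by 1.81 ± 0.47 (adjusted p = 0.0166) in hGFAP-Gnas. Without Olig1-Gnas 1 and 2 the rise of Ccl4 in Olig1-Gnas was 1.28 ± 0.21 (adjusted p = 0.000601). The calls of Ccl4 were lost without any 1 of the Ctrl libraries, with adjusted p-values of 0.0724 to 0.0846 for Olig1-Gnas and 0.0560 to 0.0661 for hGFAP-Gnas, and that of Ccl3 in hGFAP-Gnas without Ctrl 1 or Ctrl 2 (adjusted p = 0.0560 and 0.0572). The Olig1-Gnas calls of Ccl4, Ccl5, Ccl6 and Ccl19 were lost in a fit that took up the Y-linked signal, present in fewer of the Olig1-Gnas than of the Ctrl libraries by share (adjusted p = 0.0892, 0.0975, 0.0778 and 0.115).

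Ccl5 had 1.57, 4.34 and 51.5 FPKM in Olig1-Gnas, 0.661, 5.82 and 9.56 FPKM in hGFAP-Gnas and 0, 0 and 2.47 FPKM in Ctrl. Ccl5, or RANTES, is made by T cells, macrophages and glia and attracts T cells. Levels were 45.7 and 51.5 FPKM in libraries 1 and 2 of Olig1-Gnas, the other 6 Olig1-Gnas libraries held at most 8.57 FPKM, and both knockouts overlapped Ctrl 3, which is the single Ctrl library above 0. Ccl5 rose by 2.49 ± 0.94 (adjusted p = 0.0394) in Olig1-Gnas and by 1.79 ± 0.59 (adjusted p = 0.0358) in hGFAP-Gnas. These calls are fragile. Without Olig1-Gnas 1 and 2 the rise in that group was 1.64 ± 0.48 (adjusted p = 0.0149). Leaving out Ctrl 1, Ctrl 2, Olig1-Gnas 5 or Olig1-Gnas 8 ended the Olig1-Gnas call (adjusted p = 0.0501 to 0.136), and leaving out Ctrl 1, Ctrl 2 or hGFAP-Gnas 3, 4, 7 or 8 ended the hGFAP-Gnas call (adjusted p = 0.0509 to 0.142).

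The level of Ccl6 was 0, 3.39 and 7.10 FPKM in Olig1-Gnas, 0, 3.68 and 9.0 FPKM in hGFAP-Gnas and 0.0440, 0.0238 and 0.0790 FPKM in Ctrl. Ccl6 is a rodent chemokine of macrophages that acts on Ccr1. It is listed at 0 in Olig1-Gnas 6 and hGFAP-Gnas 4, and its locus overlaps E230016K23Rik, so its level is uncertain. Ccl6 rose by 1.65 ± 0.58 (adjusted p = 0.0271) in Olig1-Gnas and by 2.06 ± 0.55 (adjusted p = 0.0177) in hGFAP-Gnas. Its calls were lost without any 1 Ctrl library, with adjusted p-values of 0.0704 to 0.0766 for Olig1-Gnas and 0.0600 to 0.0669 for hGFAP-Gnas, and without Olig1-Gnas 1 and 2 together (adjusted p = 0.0607). In Olig1-Gnas Ccl9 had 0.226, 0.621 and 1.13 FPKM, in hGFAP-Gnas 0.746, 1.14 and 2.26 FPKM, and in Ctrl 0.163, 0.135 and 0.325 FPKM. Ccl9, another rodent ligand of Ccr1, lay above Ctrl in every hGFAP-Gnas library and overlapped Ctrl in Olig1-Gnas, where it did not pass the filter. It rose by 0.87 ± 0.21 (adjusted p = 0.0127) in hGFAP-Gnas, a call lost without Ctrl 1 or Ctrl 2 (adjusted p = 0.0598 and 0.0602).

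Of the chemokines of lymphoid tissue, Ccl19 rose in Olig1-Gnas and Ccl21a in hGFAP-Gnas. Ccl19 stood at 1.53, 2.77 and 11.7 FPKM in Olig1-Gnas, at 1.34, 3.69 and 13.3 FPKM in hGFAP-Gnas and at 0.757, 1.49 and 1.12 FPKM in Ctrl. Ccl19 binds Ccr7 and guides dendritic cells and naive T cells. It rose by 1.13 ± 0.45 (adjusted p = 0.0466) in Olig1-Gnas, and in hGFAP-Gnas its fold of 1.24 ± 0.46 (adjusted p = 0.0526) missed the threshold. The Olig1-Gnas call ended without Ctrl 1, 2 or 3 or Olig1-Gnas 1, 5 or 7 (adjusted p = 0.0547 to 0.150), and under upper quartile scaling (adjusted p = 0.0693). Without Olig1-Gnas 1 and 2 together the rise was 0.71 ± 0.21 (adjusted p = 0.0149). Ccl21a had 0, 0.612 and 1.85 FPKM in Olig1-Gnas, 1.28, 3.07 and 5.41 FPKM in hGFAP-Gnas and 0.0374, 0.0191 and 0.355 FPKM in Ctrl. Ccl21a, the other ligand of Ccr7, was above Ctrl in all 8 hGFAP-Gnas libraries, hGFAP-Gnas 1 included, and rose by 1.75 ± 0.32 (adjusted p = 0.00700) there. It did not pass the filter in Olig1-Gnas, where 2 of 8 libraries reached 1 FPKM. Its locus overlaps Gm1987, so reads of near-identical copies may be divided between them.

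The level of Ccl25 was 2.62, 4.28 and 5.55 FPKM in Olig1-Gnas, 2.94, 4.48 and 5.75 FPKM in hGFAP-Gnas and 2.56, 2.90 and 2.21 FPKM in Ctrl. Ccl25 is the ligand of Ccr9 on thymocytes and gut T cells. Its rise was small, at 0.55 ± 0.21 (adjusted p = 0.0412) in Olig1-Gnas and 0.57 ± 0.19 (adjusted p = 0.0353) in hGFAP-Gnas. The calls ended under quantile normalization and upper quartile scaling (adjusted p = 0.117 and 0.115 in Olig1-Gnas, 0.228 and 0.0628 in hGFAP-Gnas), and without any 1 Ctrl library, Olig1-Gnas 3, 4, 5, 7 or 8, or hGFAP-Gnas 3, 4 or 5 (adjusted p = 0.0542 to 0.145 for Olig1-Gnas and 0.0528 to 0.126 for hGFAP-Gnas).

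Ccl27a went the other way. In Olig1-Gnas Ccl27a had 1.93, 11.8 and 21.9 FPKM, in hGFAP-Gnas 10.4, 21.5 and 30.2 FPKM, and in Ctrl 46.8, 46.1 and 49.6 FPKM. It encodes a ligand of Ccr10 best known from keratinocytes. All 16 knockout libraries lay below all 3 Ctrl libraries, with the highest knockout value in hGFAP-Gnas 1. Ccl27a fell by 2.11 on the log2 scale in Olig1-Gnas (log2 fold -2.11 ± 0.50, adjusted p = 0.00339) and by 1.19 in hGFAP-Gnas (log2 fold -1.19 ± 0.25, adjusted p = 0.00912). The locus overlaps Il11ra1, so the value may hold reads of both genes. Ccl27a was the single member highest in a Ctrl library, 2.04% of the members, against 18.3% of the 19588 genes above 0 in any library.

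The other CC ligands stayed low. Ccl17 and Ccl22, ligands of Ccr4, reached at most 2.93 and 1.86 FPKM in Olig1-Gnas, 4.65 and 0.818 FPKM in hGFAP-Gnas, and 0.977 and 0.212 FPKM in Ctrl. Ccl17 was tested in hGFAP-Gnas and did not pass (0.38 ± 0.49, adjusted p = 0.548). Ccl1, Ccl20 and Ccl24 stayed under 1 FPKM in every library, and Ccl1 and Ccl20 are listed at 0 in all Ctrl libraries.

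**Figure D2:**
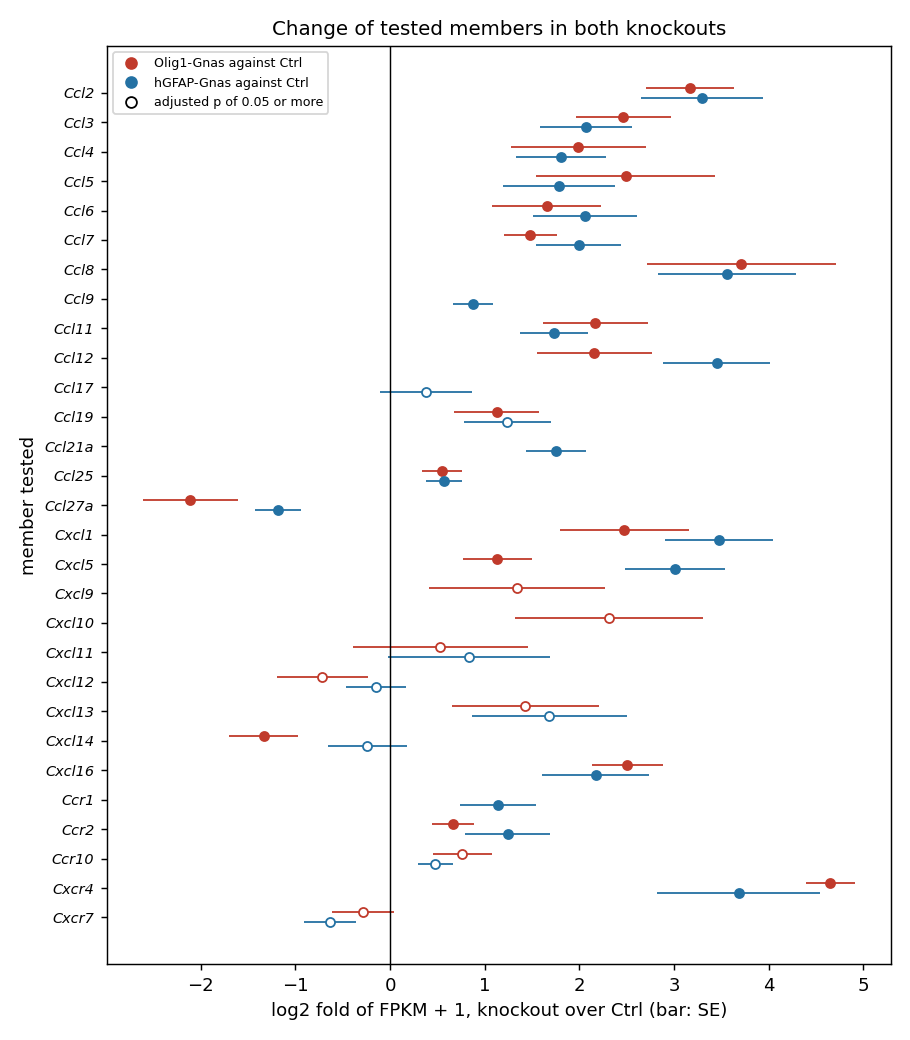
Log2 fold of FPKM + 1 of tested members in Olig1-Gnas (red) and hGFAP-Gnas (blue) over Ctrl, with bars for the SE; open points have an adjusted p of 0.05 or more. Ccl27a is left of 0 in both comparisons, Cxcr4 is farthest to the right in Olig1-Gnas, and both comparisons share the same 3 Ctrl libraries.

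Among CXC ligands that attract neutrophils through Cxcr2, Cxcl1 and Cxcl5 rose in both knockouts, and Cxcl2 and Cxcl3 were under the filter. Cxcl1 stood at 1.28, 4.36 and 35.1 FPKM in Olig1-Gnas, at 2.47, 10.7 and 45.7 FPKM in hGFAP-Gnas and at 0.10, 0.102 and 0 FPKM in Ctrl. Cxcl1 is made by macrophages, astrocytes and endothelium. All knockout libraries lay above Ctrl, with Olig1-Gnas 6 at 35.1 FPKM and hGFAP-Gnas 3 at 45.7 FPKM far above the others. Cxcl1 rose by 2.48 ± 0.68 (adjusted p = 0.00784) in Olig1-Gnas and by 3.47 ± 0.57 (adjusted p = 0.00609) in hGFAP-Gnas. Cxcl5 had 0.525, 1.14 and 5.51 FPKM in Olig1-Gnas, 1.22, 8.36 and 20.9 FPKM in hGFAP-Gnas and 0.0515, 0.131 and 0.139 FPKM in Ctrl. Cxcl5 also acts on Cxcr2. It rose by 1.13 ± 0.37 (adjusted p = 0.0180) in Olig1-Gnas and by 3.01 ± 0.53 (adjusted p = 0.00699) in hGFAP-Gnas, in both with no overlap with Ctrl, and the Olig1-Gnas call was lost without any 1 Ctrl library (adjusted p = 0.0521 to 0.0629). Cxcl2 was below the filter and reached 5.48 FPKM in Olig1-Gnas 6 and 2.07 FPKM in hGFAP-Gnas 3, with at most 0.827 FPKM in any other knockout library, and is listed at 0 in all of Ctrl. Cxcl3 and Cxcl15 stayed under 1 FPKM throughout.

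The promoter of Cxcl1 is printed because Cxcl1 and Cxcl2, which neighbour each other, were highest in the same library of Olig1-Gnas and in the same library of hGFAP-Gnas. The RefSeq promoter table (GRCm38.p6) places the window of Cxcl1 on the plus strand at chr5:90890995-90891294, and capitals mark letters that match the consensus of NF-kB, the transcription factor of inflammatory induction, at overlapping positions from -71 to -61 relative to the transcription start.
Cxcl1: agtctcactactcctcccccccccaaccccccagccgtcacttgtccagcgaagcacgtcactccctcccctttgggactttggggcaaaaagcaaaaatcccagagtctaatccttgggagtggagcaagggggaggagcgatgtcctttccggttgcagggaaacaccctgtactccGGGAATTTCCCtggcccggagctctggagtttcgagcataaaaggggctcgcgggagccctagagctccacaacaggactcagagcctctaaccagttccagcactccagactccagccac
On both strands, 8.46% of 32851 promoter windows hold this consensus. Of the 31 described ligands 22 had a window in the table, and 8 of them hold it, namely Ccl1, Ccl20, Ccl27a, Ccl9, Cxcl1, Cxcl10, Cxcl2 and Cxcl3. Of the 11 called ligands with a window, 3 hold it, and one of these, Ccl27a, fell. A ligand is counted if any of its windows holds the letters, so its count and the share of windows are unlike measures. A match describes letters and does not show binding.

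The ligands of Cxcr3, which interferons induce and which recruit activated T cells, were high in a few libraries. The level of Cxcl9 was 0.0293, 0.377 and 16.9 FPKM in Olig1-Gnas, 0.0267, 0.245 and 0.632 FPKM in hGFAP-Gnas and 0, 0 and 0.112 FPKM in Ctrl. Levels of 14.6 and 16.9 FPKM were those of Olig1-Gnas 1 and 2, Olig1-Gnas 8 held 2.19 FPKM, and every other library was under 1 FPKM. In Olig1-Gnas Cxcl10 had 0, 4.13 and 20.3 FPKM, in hGFAP-Gnas 0, 0.189 and 6.29 FPKM, and in Ctrl 0, 0.118 and 0.0256 FPKM. Here Olig1-Gnas 1, 2 and 8 held 16.2, 20.3 and 19.8 FPKM, and 2 other Olig1-Gnas libraries are listed at 0. Cxcl11 stood at 0, 0.0938 and 12.6 FPKM in Olig1-Gnas, at 0, 2.2 and 7.56 FPKM in hGFAP-Gnas and at 0, 0 and 2.33 FPKM in Ctrl. Cxcl10 and Cxcl11 share a printed locus with Art3, so reads may be divided among these 3 genes and their zeros are uncertain. None of the 3 passed the test in Olig1-Gnas, with folds of 1.34 ± 0.93 (adjusted p = 0.231), 2.31 ± 0.99 (adjusted p = 0.0630) and 0.53 ± 0.92 (adjusted p = 0.639) for Cxcl9, Cxcl10 and Cxcl11. In hGFAP-Gnas Cxcl11 did not pass (0.83 ± 0.86, adjusted p = 0.447) and the others were under the filter. The Cxcl10 fold passed when Olig1-Gnas 5 or Olig1-Gnas 6, where it is listed at 0, was left out.

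The promoter windows of Cxcl9 and Cxcl10 are printed for their interferon-type letters. In the window of Cxcl9 on the minus strand at chr5:92328030-92328329, capitals mark GAAANNGAA at -175 to -167. In that of Cxcl10 on the minus strand at chr5:92348840-92349139, capitals mark GAAANNGAA at -213 to -205 and the NF-kB consensus at -159 to -150 and, at overlapping positions, -104 to -94.
Cxcl9: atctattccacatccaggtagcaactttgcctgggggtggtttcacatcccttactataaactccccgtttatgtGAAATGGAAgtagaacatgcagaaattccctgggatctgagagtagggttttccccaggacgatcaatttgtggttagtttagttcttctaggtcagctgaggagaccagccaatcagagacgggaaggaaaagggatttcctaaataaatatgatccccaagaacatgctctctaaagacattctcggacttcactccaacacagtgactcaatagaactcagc
Cxcl10: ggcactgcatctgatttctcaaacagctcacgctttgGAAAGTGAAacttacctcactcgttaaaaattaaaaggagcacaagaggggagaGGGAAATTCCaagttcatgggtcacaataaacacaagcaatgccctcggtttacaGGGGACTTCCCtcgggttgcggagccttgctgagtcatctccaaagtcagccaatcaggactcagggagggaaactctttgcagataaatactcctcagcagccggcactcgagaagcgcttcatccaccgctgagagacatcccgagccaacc
Searched on both strands, GAAANNGAA stands in 8.56% of all windows and in those of 6 of the 22 ligands, Ccl1, Ccl19, Ccl3, Cxcl10, Cxcl14 and Cxcl9. TTCNNNGAA, the letters bound by STAT factors, stands in 8.30% of all windows and in those of Ccl17 and Cxcl14. Here too ligands are counted by any of their windows, a measure unlike the share of windows.

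**Figure D3:**
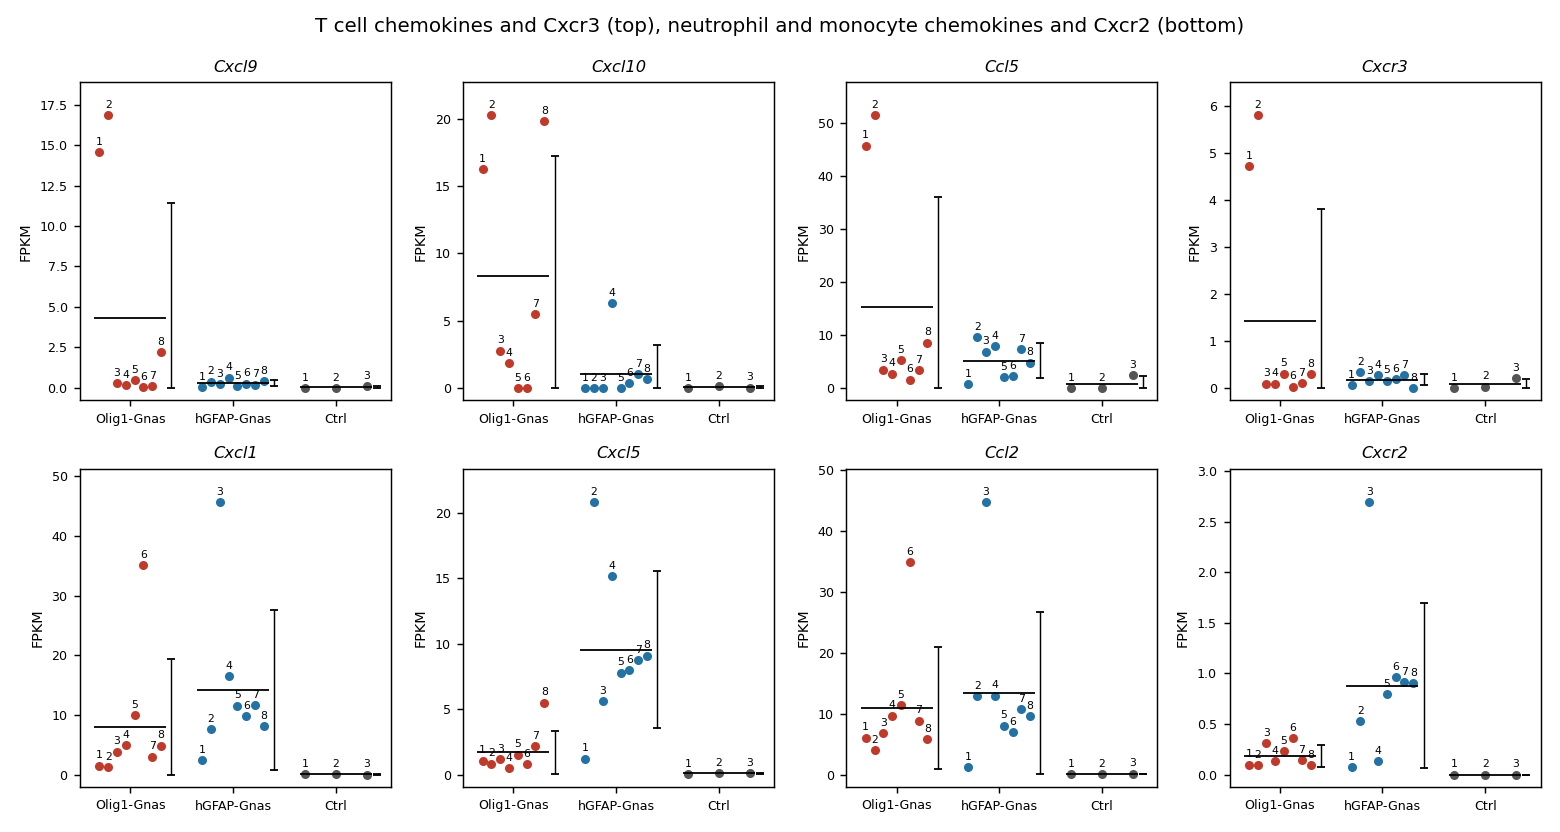
FPKM by library, numbered, of the T cell chemokines Cxcl9, Cxcl10 and Ccl5 with the receptor Cxcr3 (top) and of Cxcl1, Cxcl5 and Ccl2 with the receptor Cxcr2 (bottom); lines are means and bars are SD, drawn no lower than 0. Olig1-Gnas 1 and 2 lead Cxcl9, Ccl5 and Cxcr3, Olig1-Gnas 1, 2 and 8 lead Cxcl10, and hGFAP-Gnas 3 and Olig1-Gnas 6 lead Cxcl1 and Ccl2.

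Cxcl16 had 6.56, 8.64 and 22.6 FPKM in Olig1-Gnas, 0.746, 9.74 and 18.4 FPKM in hGFAP-Gnas and 0.618, 0.846 and 1.78 FPKM in Ctrl. Cxcl16 is a membrane-bound ligand of Cxcr6 made by macrophages and astrocytes. All Olig1-Gnas libraries lay above Ctrl, and in hGFAP-Gnas the one library within the range of Ctrl was hGFAP-Gnas 1. It rose by 2.50 ± 0.38 (adjusted p = 0.000138) in Olig1-Gnas and by 2.17 ± 0.56 (adjusted p = 0.0161) in hGFAP-Gnas. Without Olig1-Gnas 1 and 2 the first rise was 2.16 ± 0.21, and the second call was lost without Ctrl 1 or Ctrl 2 (adjusted p = 0.0714 and 0.0650). Its locus overlaps Zmynd15. The level of Cxcl13 was 0, 1.99 and 18.1 FPKM in Olig1-Gnas, 0.226, 2.29 and 29.6 FPKM in hGFAP-Gnas and 0, 0 and 0.950 FPKM in Ctrl. Cxcl13 attracts B cells through Cxcr5, and it was most abundant in hGFAP-Gnas 7 and Olig1-Gnas 1. It did not pass in either knockout, with a fold of 1.43 ± 0.78 (adjusted p = 0.131) in Olig1-Gnas and of 1.68 ± 0.82 (adjusted p = 0.117) in hGFAP-Gnas.

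In Olig1-Gnas Cxcl14 had 3.16, 9.40 and 16.1 FPKM, in hGFAP-Gnas 10.3, 19.8 and 44.1 FPKM, and in Ctrl 23.5, 27.3 and 24.8 FPKM. Cxcl14 is a constitutive chemokine that brain neurons express. All Olig1-Gnas libraries lay below all Ctrl libraries, and hGFAP-Gnas libraries lay on both sides of Ctrl. Cxcl14 fell by 1.34 on the log2 scale in Olig1-Gnas (log2 fold -1.34 ± 0.36, adjusted p = 0.00747), and in hGFAP-Gnas its fold was -0.24 ± 0.42 (adjusted p = 0.659). Beside the falls of Ccl27a and Cxcl14, markers of Purkinje cells summed to 16.0 to 709 FPKM in Olig1-Gnas, 91.7 to 1831 FPKM in hGFAP-Gnas and 2457 to 3792 FPKM in Ctrl, and their part in the result was not tested. In whole tissue, fewer cells of a type and less RNA per cell cannot be told apart.

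Cxcr4, the receptor of Cxcl12 on granule neuron progenitors and many leukocytes, was the most abundant receptor among the members in both knockouts. It had the largest fold among the tested members in Olig1-Gnas. Cxcr4 stood at 71.6, 113 and 173 FPKM in Olig1-Gnas, at 3.49, 75 and 133 FPKM in hGFAP-Gnas and at 3.90, 5.51 and 1.88 FPKM in Ctrl. It averaged 115 ± 28.6 FPKM in Olig1-Gnas, 78.0 ± 43.4 FPKM in hGFAP-Gnas (SD, n = 8 each) and 3.76 ± 1.82 FPKM in Ctrl (SD, n = 3). Every Olig1-Gnas library exceeded every Ctrl library, and 7 of 8 hGFAP-Gnas libraries did, at 41.1 to 133 FPKM, while hGFAP-Gnas 1 held 3.49 FPKM. Cxcr4 rose by 4.65 ± 0.26 (adjusted p = 3.82e-08) in Olig1-Gnas. In hGFAP-Gnas it rose by 3.69 ± 0.86 (adjusted p = 0.0120), and by 4.21 ± 0.36 (adjusted p = 7.08e-06) without hGFAP-Gnas 1. Leaving out any 1 Ctrl library ended the hGFAP-Gnas call (adjusted p = 0.0504 to 0.0541).

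Markers of granule progenitors and dividing cells were also higher in the knockouts. Their sum was 809 to 1406 FPKM in Olig1-Gnas, 53.6 FPKM in hGFAP-Gnas 1, 466 to 1062 FPKM in the other hGFAP-Gnas libraries and 12.9 to 16.7 FPKM in Ctrl. Olig1-Gnas 3 was highest in Cxcr4 and in this sum, while Olig1-Gnas 8 had the lowest sum of its group and the next highest Cxcr4, 125 FPKM. The sum of microglia and macrophage markers was 1062 to 3264 FPKM in Olig1-Gnas, 224 FPKM in hGFAP-Gnas 1, 1486 to 2231 FPKM in the other hGFAP-Gnas libraries and 119 to 175 FPKM in Ctrl. Their part in the result was not tested.

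Cxcl12 had 6.32, 15.4 and 32.4 FPKM in Olig1-Gnas, 11.2, 21.2 and 35.5 FPKM in hGFAP-Gnas and 19.9, 19 and 32.8 FPKM in Ctrl. The ligand of Cxcr4 did not pass the test, with a log2 fold of -0.72 ± 0.48 (adjusted p = 0.217) in Olig1-Gnas and -0.15 ± 0.32 (adjusted p = 0.723) in hGFAP-Gnas. Levels of 30.2 and 32.4 FPKM in libraries 1 and 2 of Olig1-Gnas were near the top of all libraries. The other 6 Olig1-Gnas libraries lay below every Ctrl library, with 6.54, 6.32 and 7.09 FPKM in Olig1-Gnas 3, 4 and 6. Without Olig1-Gnas 1 and 2 the fold in Olig1-Gnas was -1.09 ± 0.36 (adjusted p = 0.0237), past the threshold. The level of Cxcr7 was 1.79, 3.59 and 9.85 FPKM in Olig1-Gnas, 1.32, 2.39 and 4.92 FPKM in hGFAP-Gnas and 4.18, 5.27 and 4.85 FPKM in Ctrl. Cxcr7 is an atypical receptor that takes up Cxcl12 without G protein signaling. It did not pass in Olig1-Gnas (-0.29 ± 0.33, adjusted p = 0.475) or in hGFAP-Gnas (-0.64 ± 0.28, adjusted p = 0.0823), and under quantile normalization the fold in hGFAP-Gnas was -0.87 ± 0.26 (adjusted p = 0.0244).

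**Figure D4:**
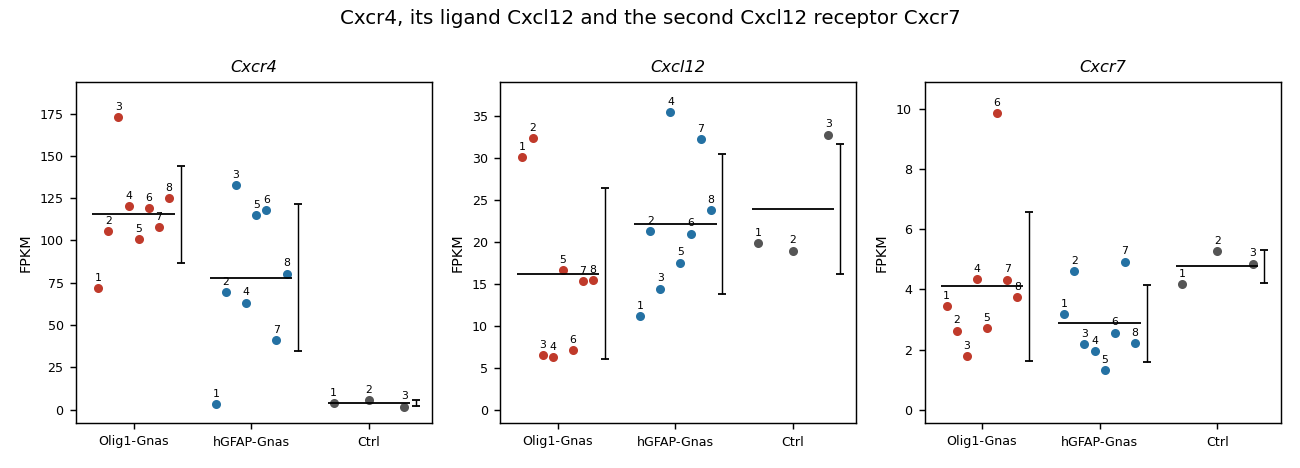
FPKM by library, numbered, of Cxcr4, Cxcl12 and Cxcr7 in Olig1-Gnas, hGFAP-Gnas and Ctrl; lines are means and bars are SD. For Cxcr4, 15 of 16 knockout libraries lie above Ctrl and hGFAP-Gnas 1 lies among the Ctrl values, while for Cxcl12 and Cxcr7 the groups overlap.

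Among CC receptors of monocytes and macrophages, Ccr2 rose in both knockouts and Ccr1 in hGFAP-Gnas. In Olig1-Gnas Ccr2 had 0.134, 0.753 and 1.44 FPKM, in hGFAP-Gnas 0.160, 1.49 and 7.64 FPKM, and in Ctrl 0.0607, 0.118 and 0.179 FPKM. Ccr2 marks blood monocytes. hGFAP-Gnas 3 held 7.64 FPKM, more than 3 times any other library, and the rise was 0.66 ± 0.22 (adjusted p = 0.0215) in Olig1-Gnas and 1.24 ± 0.45 (adjusted p = 0.0483) in hGFAP-Gnas. The Ccr2 calls ended without any 1 Ctrl library (adjusted p = 0.0546 to 0.0852 in Olig1-Gnas, where Ccr2 also fell under the filter without library 1, 2 or 5). They ended in hGFAP-Gnas also without library 4, 5, 6, 7 or 8 of that group (adjusted p = 0.0661 to 0.134 over all of these), and Ccr2 was not called under quantile normalization or upper quartile scaling in either knockout. Without hGFAP-Gnas 3 the rise in hGFAP-Gnas was 1.00 ± 0.28 (adjusted p = 0.0278). Ccr1 stood at 0.310, 0.538 and 0.874 FPKM in Olig1-Gnas, at 0.275, 1.17 and 6.53 FPKM in hGFAP-Gnas and at 0.128, 0.101 and 0.0770 FPKM in Ctrl. Ccr1, the receptor of Ccl3, Ccl5, Ccl6 and Ccl9, was above Ctrl in every library of both knockouts and again highest in hGFAP-Gnas 3. It was tested in hGFAP-Gnas and rose by 1.14 ± 0.40 (adjusted p = 0.0425), a call lost without any 1 Ctrl library or without hGFAP-Gnas 2, 4, 5, 6, 7 or 8 (adjusted p = 0.0506 to 0.114). Without hGFAP-Gnas 3 the rise was 0.91 ± 0.21 (adjusted p = 0.0163). The call of Ccr1 in hGFAP-Gnas was also lost under quantile normalization and was kept under upper quartile scaling. With no filter on low values, Ccr1 passed in Olig1-Gnas (0.48 ± 0.09, adjusted p = 0.00112), and neither Ccr1 nor Ccr2 passed in hGFAP-Gnas (adjusted p = 0.0561 and 0.0648).

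Ccr10 had 0.364, 2.21 and 3.75 FPKM in Olig1-Gnas, 0.925, 1.65 and 2.09 FPKM in hGFAP-Gnas and 0.786, 0.972 and 0.665 FPKM in Ctrl. Ccr10, the receptor of Ccl27a, missed the threshold in Olig1-Gnas (0.76 ± 0.31, adjusted p = 0.0504) and in hGFAP-Gnas (0.47 ± 0.18, adjusted p = 0.0593). Receptors of T and dendritic cells were untested and low. Ccr7 was above 0 in all 16 knockout libraries, with 2.07 and 2.61 FPKM in Olig1-Gnas 1 and 2, and is listed at 0 in all of Ctrl. Ccr8 held 1.86 FPKM in Olig1-Gnas 2 and at most 0.593 FPKM elsewhere, and Ccr6 held 2.07 FPKM in Olig1-Gnas 2 and 2.33 FPKM in hGFAP-Gnas 7. Ccr3, Ccr4, Ccr9 and Ccr1l1 stayed under 1 FPKM in all libraries.

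The other CXC receptors were those of leukocytes. The level of Cxcr3 was 0.0281, 0.197 and 5.81 FPKM in Olig1-Gnas, 0, 0.171 and 0.329 FPKM in hGFAP-Gnas and 0, 0.0270 and 0.216 FPKM in Ctrl. The 2 highest values of Cxcr3, 4.73 and 5.81 FPKM, were those of Olig1-Gnas 1 and 2, and no other library exceeded 0.329 FPKM. Cxcr6, the receptor of Cxcl16, reached 2.01 and 1.86 FPKM in the same libraries and stayed at or under 0.706 FPKM elsewhere, and its locus overlaps Fyco1. Cxcr5, the receptor of Cxcl13 on B cells, held 0.703 and 1.35 FPKM in Olig1-Gnas 1 and 2. In Olig1-Gnas Cxcr2 had 0.0955, 0.139 and 0.362 FPKM, in hGFAP-Gnas 0.0762, 0.852 and 2.69 FPKM, and in Ctrl 0, 0 and 0 FPKM. Cxcr2, the receptor of Cxcl1 and Cxcl5 on neutrophils, was above 0 in all 16 knockout libraries, highest in hGFAP-Gnas 3, and is listed at 0 in all of Ctrl. Cxcr1 stayed under 1 FPKM throughout. These 5 receptors were under the filter in both comparisons with Ctrl, and with no filter Cxcr2 passed in Olig1-Gnas (adjusted p = 0.0164).

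Levels of several members and of leukocyte markers differed between libraries of the same knockout. Of the 49 members, 16 were highest in Olig1-Gnas 1 or 2 (32.7%, against 11.7% of genes above 0 in any library) and 14 in hGFAP-Gnas 3 (28.6%, against 8.64%). These libraries were picked after their values were seen, so the shares are a description. The 16 include Cxcl9, Cxcl10, Cxcl11, Cxcl16, Ccl3, Ccl4, Ccl5, Ccl8, Cxcr3 and Cxcr6, and the 14 include Ccl2, Ccl7, Ccl12, Cxcl1, Ccr1, Ccr2 and Cxcr2. Markers of T lymphocytes, 10 in the tables, summed to 34.9 and 43.8 FPKM in Olig1-Gnas 1 and 2, to 3.23 to 8.48 FPKM in the other Olig1-Gnas libraries, to 1.43 to 8.39 FPKM in hGFAP-Gnas and to 0.471 to 2.33 FPKM in Ctrl. Outside Olig1-Gnas 1 and 2, Cd4 held 0.187 to 6.12 FPKM in the knockouts, against at most 0.07 FPKM in Ctrl. Cd3d, Cd3e and Cd3g held at most 0.482, 0.404 and 0.662 FPKM there, against at most 0.180, 0.246 and 0 FPKM in Ctrl. Cd3g, part of the T cell receptor complex, reached 11.1 FPKM in Olig1-Gnas 2 and is listed at 0 in all of Ctrl. Markers of B and plasma cells summed to 411 and 392 FPKM in libraries 1 and 2 of Olig1-Gnas, against no more than 11.6 FPKM in the other Olig1-Gnas libraries, 25.0 FPKM in hGFAP-Gnas and 7.87 FPKM in Ctrl.

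Neutrophil markers, 7 in the tables, summed to 209 FPKM in Olig1-Gnas 6, 7.58 to 19.8 FPKM in the other Olig1-Gnas libraries, 103 FPKM in hGFAP-Gnas 3, 14.6 to 54.4 FPKM in the other hGFAP-Gnas libraries and 1.43 to 3.74 FPKM in Ctrl. Most of the sum in Olig1-Gnas 6 was S100a8 and S100a9, at 100 and 80.8 FPKM. Retnlg, at 18.9 FPKM, Camp and Ngp were also highest of the group there. Csf3r was lowest of the group there, at 1.71 FPKM, and Mpo was low, at 0.101 FPKM. Olig1-Gnas 6 was also highest of its group in Ccl2, Ccl7, Ccl11, Cxcl1 and Cxcl2, and hGFAP-Gnas 3 was highest of all libraries in Ccl2 and Cxcl1. Olig1-Gnas 6 was not high in Cxcl5 or Ccr2, at 0.790 and 0.134 FPKM. Markers of dendritic cells summed to 4.34 to 18.7 FPKM in Olig1-Gnas and 5.08 to 30.1 FPKM in hGFAP-Gnas, below the 33.8 to 41.4 FPKM of Ctrl. Of 4 tested, 1 rose and 3 fell in Olig1-Gnas, and 1 rose and 2 fell in hGFAP-Gnas. Most of the Ctrl sum was Zbtb46, at 23.1 to 25.9 FPKM, and Flt3, at 9.04 to 12.9 FPKM. Itgax went the other way, at 0.0538 to 0.159 FPKM in Ctrl and 0.161 to 8.24 FPKM in the knockouts. The sum therefore does not show fewer dendritic cells in the knockouts. Of the 15 markers of microglia and macrophages, all tested, 12 rose in Olig1-Gnas and 13 in hGFAP-Gnas, and none fell. The part of these cells in the chemokine results was not tested. Over pairs of Olig1-Gnas libraries, the spread of log2 ratios across 2516 abundant genes was 0.126 between libraries 1 and 2 and 0.160 to 0.543 between any other pair. It was 0.141 to 0.792 over pairs of hGFAP-Gnas libraries and 0.112 to 0.257 over pairs of Ctrl libraries, so so small a spread was not particular to that pair.

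**Figure D5:**
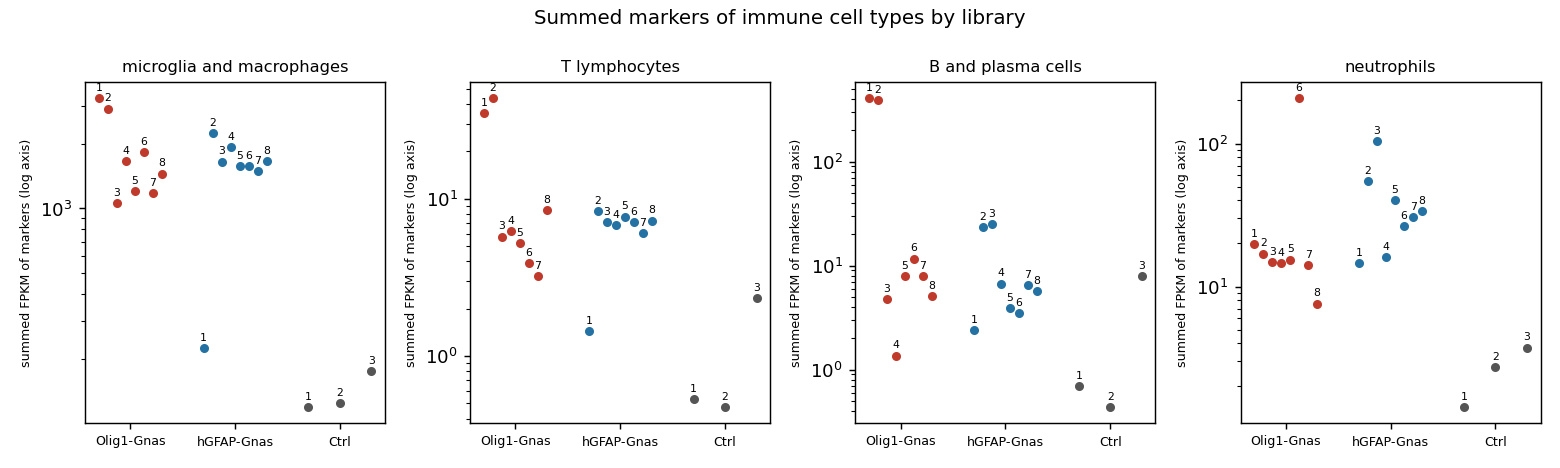
Summed FPKM, on a log axis, of marker genes of microglia and macrophages, T lymphocytes, B and plasma cells and neutrophils in each numbered library of Olig1-Gnas, hGFAP-Gnas and Ctrl. Olig1-Gnas 1 and 2 lead the lymphocyte panels, Olig1-Gnas 6 and hGFAP-Gnas 3 lead the neutrophil panel, and hGFAP-Gnas 1 lies nearest to Ctrl for microglia.

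With Olig1-Gnas 1 and 2 left out together, 17 of the 19 calls in Olig1-Gnas remained. Ccl6 no longer passed and Ccr2 fell under the filter, while Cxcl12 was gained as lower. With each library left out in turn, 11 of the 19 Olig1-Gnas calls held throughout, those of Ccl2, Ccl3, Ccl7, Ccl8, Ccl11, Ccl12, Cxcl1, Cxcl16, Cxcr4, Ccl27a and Cxcl14. Leaving out a Ctrl library cost most, with 12 calls when Ctrl 1 was dropped, 11 for Ctrl 2 and 13 for Ctrl 3. Among the deeper libraries alone 15 of the 19 were called and among the shallower alone 7, with Ctrl 3 as the lone Ctrl library, assumed to vary like the others.

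Of the 20 hGFAP-Gnas calls, 7 held with each library left out in turn, those of Ccl2, Ccl11, Ccl12, Ccl21a, Cxcl1, Cxcl5 and Ccl27a. There were 9 calls when Ctrl 1 was dropped, 7 for Ctrl 2 and 14 for Ctrl 3, and over all genes 1049, 818 and 1924 were called in place of 5570. Without hGFAP-Gnas 1 all 20 calls held, Ccl19 and Ccr10 joined them as higher, and 8164 genes were called. Among the deeper libraries alone, which include hGFAP-Gnas 1, no member and 6 genes in all were called. In those libraries the folds of Ccl2 and Cxcr4 were 3.48 ± 1.1 and 2.85 ± 1.30 (adjusted p = 0.259 and 0.272). In the shallower alone, where Ctrl 3 is the lone Ctrl library, the 2 folds were 3.07 and 4.85.

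Set directly against each other, the knockouts differed in 1 chemokine. In Olig1-Gnas against hGFAP-Gnas, 30 members were tested, 0 were higher and 1 was lower in Olig1-Gnas, beside 0.146% and 0.264% of all genes tested. Cxcl5 had 0.525, 1.14 and 5.51 FPKM in Olig1-Gnas, against 1.22, 8.36 and 20.9 FPKM in hGFAP-Gnas. All 8 Olig1-Gnas libraries lay below 7 of the 8 hGFAP-Gnas libraries, and hGFAP-Gnas 1 lay among the Olig1-Gnas values. The log2 fold was -1.88 ± 0.39 (adjusted p = 0.0436). It was -2.17 ± 0.31 (adjusted p = 0.00377) without hGFAP-Gnas 1 and missed the threshold without any 1 of 13 other libraries, Olig1-Gnas 1 to 7 and hGFAP-Gnas 2 and 4 to 8 (adjusted p = 0.0527 to 0.0973). With Y-linked signal as a term the fold was -1.38 ± 0.48 (adjusted p = 0.824). Within the deeper libraries the fold was -1.45 ± 0.71 (adjusted p = 0.659), and within the shallower -2.31 ± 0.17 (adjusted p = 0.000659).

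Ccl21a came next, with a fold of -1.23 ± 0.26 (adjusted p = 0.0522), which missed the threshold. Under quantile normalization Ccl21a passed (-1.15 ± 0.24, adjusted p = 0.0477) and Cxcl5 did not (-1.71 ± 0.37, adjusted p = 0.0529), and Ccl21a also passed under upper quartile scaling (adjusted p = 0.0456). Cxcl14 had a fold of -1.1 ± 0.34 (adjusted p = 0.132), Ccl12 of -1.29 ± 0.50 (adjusted p = 0.171) and Ccl27a of -0.93 ± 0.34 (adjusted p = 0.164), and none of them passed. Cxcr4 had a fold of 0.97 ± 0.53 (adjusted p = 0.263), and 0.44 ± 0.23 (adjusted p = 0.312) without hGFAP-Gnas 1. These p-values do not show that the knockouts are alike.

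Several members that rose have neighbours within the family. Here 4 such groups, all of ligands, are given as the deposited table prints their loci in mm9, and other groups are left out. Cxcr4, Cxcl16 and Ccl25, which also rose, have no such neighbour. Ccl2, Ccl7, Ccl11, Ccl12, Ccl8 and Ccl1 lie on chromosome 11 between 81849078 and 81993314, and 5 of these 6 rose in either knockout. Ccl5, Ccl9, Ccl6, Ccl3 and Ccl4 lie on the same chromosome between 83339280 and 83478185, and 4 rose in Olig1-Gnas and 5 in hGFAP-Gnas. Cxcl5, Cxcl3, Cxcl15, Cxcl1 and Cxcl2 lie on chromosome 5 between 91188324 and 91334964, where Cxcl1 and Cxcl5 rose in both. Cxcl9, Cxcl10 and Cxcl11 lie further along between 92750356 and 92843653, and none passed. Over all genes tested 36.2% rose in Olig1-Gnas and 26.1% in hGFAP-Gnas. Among those under 1 FPKM in every Ctrl library, as most of the chromosome 11 genes were, 73.6% and 73.7% rose, so the filter bears on these counts. Neighbouring genes of one family are not independent of each other, and these counts are a description.

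A list outside the naming rule held 15 genes of other chemokines, receptors, and a chemokine-like factor with its relatives. Of these 11 were tested, 4 rose and 3 fell in Olig1-Gnas, and 7 rose and 1 fell in hGFAP-Gnas, with median folds of 0.80 and 0.83. Of all genes tested, 36.2% rose and 23.6% fell in Olig1-Gnas and 26.1% and 12.8% in hGFAP-Gnas, and the counts of this list and the next 3 are read as descriptions beside those shares. Cx3cl1, the neuronal chemokine fractalkine, fell in both, to 1.15, 3.24 and 11.3 FPKM in Olig1-Gnas and 3.27, 9.02 and 35.9 FPKM in hGFAP-Gnas, against 25.5 to 37.4 FPKM in Ctrl. Its log2 fold was -2.71 ± 0.51 (adjusted p = 0.000729) in Olig1-Gnas and -1.57 ± 0.52 (adjusted p = 0.0349) in hGFAP-Gnas. Its receptor Cx3cr1, a microglial gene, rose in hGFAP-Gnas (1.89 ± 0.41, adjusted p = 0.0101). Cklf, a chemokine-like factor, rose by 3.65 ± 0.37 (adjusted p = 6.64e-06) in Olig1-Gnas and by 2.96 ± 0.58 (adjusted p = 0.00807) in hGFAP-Gnas, and its relative Cmtm3 by 2.45 ± 0.16 (adjusted p = 1.46e-07) and by 1.76 ± 0.32 (adjusted p = 0.00700). Darc, an atypical receptor that binds many inflammatory chemokines, fell in Olig1-Gnas (-1.69 ± 0.42, adjusted p = 0.00450).

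Of 34 genes that carry signals of chemokine receptors, 31 were tested in Olig1-Gnas, 17 rose and 7 fell, and of 33 tested in hGFAP-Gnas 18 rose and 5 fell, with median folds of 0.73 and 0.79. Among inhibitory G protein subunits, Gnai1 fell, with a fold of -2.77 ± 0.49 (adjusted p = 0.000512) in Olig1-Gnas and -1.74 ± 0.55 (adjusted p = 0.0306) in hGFAP-Gnas. Gnai3 rose by 2.03 ± 0.17 (adjusted p = 1.57e-06) in Olig1-Gnas and by 1.51 ± 0.38 (adjusted p = 0.0149) in hGFAP-Gnas. Gnai2, the most abundant of these subunits in the knockouts, had 165 to 261 FPKM in Olig1-Gnas, 91.1 to 293.5 FPKM in hGFAP-Gnas and 74.6 to 85.0 FPKM in Ctrl. Rac2, a GTPase of blood cells, rose by 2.33 ± 0.47 (adjusted p = 0.00121) in Olig1-Gnas and by 2.34 ± 0.37 (adjusted p = 0.00608) in hGFAP-Gnas. Arrb1, which encodes an arrestin that uncouples receptors, fell in Olig1-Gnas (-2.02 ± 0.22, adjusted p = 1.23e-05). The other arrestin gene of the list, Arrb2, went the other way, with 33.0 to 63.3 FPKM in Olig1-Gnas against 26.4 to 27.1 FPKM in Ctrl.

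Of cytokines, receptors and NF-kB genes that induce chemokines, 27 of 30 were tested, 16 rose in Olig1-Gnas, 15 rose in hGFAP-Gnas and none fell, with median folds of 0.79 and 0.80. Tlr2, a receptor for bacterial lipoproteins, rose by 1.91 ± 0.50 (adjusted p = 0.00543) in Olig1-Gnas and by 2.18 ± 0.43 (adjusted p = 0.00832) in hGFAP-Gnas. Tnfrsf1a, a receptor of tumor necrosis factor, rose by 1.65 ± 0.20 (adjusted p = 2.56e-05) and by 1.79 ± 0.27 (adjusted p = 0.00577), and Il1b, which encodes interleukin 1 beta, by 1.39 ± 0.19 (adjusted p = 6.19e-05) and by 1.87 ± 0.47 (adjusted p = 0.0147) in the same order. Of genes that retain or cleave chemokines, 3 of 9 tested rose and 1 fell in Olig1-Gnas, and 2 of 8 rose in hGFAP-Gnas, shares of rises near those of all genes and no result about the list. Mmp2, a protease that cleaves Cxcl12, rose by 3.20 ± 0.25 (adjusted p = 5.73e-07) in Olig1-Gnas and by 2.71 ± 0.63 (adjusted p = 0.0120) in hGFAP-Gnas.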

How the data were processed

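RNA sequencing of 19 cerebellum libraries gave FPKM values per gene, which the authors deposited as 2 tables, one for each knockout with the Ctrl libraries. TopHat, Cufflinks and mm9 are named in the submitters' processing notes, with versions not given in the sources used here. FPKM holds no read counts, so no counting interval is given. FPKM was set on the scale of log2(FPKM + 1), genes that reached 1 FPKM in 3 or more of the libraries compared were kept, and limma 3.58.1 in R 4.3.3 was fitted with trend and robust empirical Bayes. Benjamini-Hochberg adjustment ran over all genes tested, at 0.05. Each comparison with Ctrl used its own table's Ctrl columns, which differ in 5106 genes for Ctrl 1, and printed Ctrl levels come from the Olig1-Gnas table. Alternatives covered the offset, filter, scaling, threshold, depth, Y-linked signal and each library left out. Leaving out Olig1-Gnas 1 and 2 together and taking the deeper or shallower libraries alone were chosen after seeing the data. The fit was tested on simulated data. Members were all genes that match the naming rule, and they and the gene lists were chosen with earlier results of these data known. Values of 1 member are not reported here, though counts over the members include it. Other genes were named by list. Replicate numbers were not used to pair the samples in the main fit. Promoters came from RefSeq GRCm38.p6 and gene positions from the deposited table in mm9.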

Additional observations from a re-analysis of the deposited data

Results flagged for a closer look

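Among 46 groups examined, 23 members in each of the 2 knockouts, 6 had a library set apart from the other 7 of its group. The gap was more than 0.526 of the group's range in log2(FPKM + 1) (Dixon's 95% critical value). The 23 members were drawn from those called in a comparison and from Cxcr4, Cxcl12 and Cxcr7, which were always examined. Chance flags about 1 in 20 groups, and members share libraries, so the groups are not independent. Of the 6, 4 were low values of hGFAP-Gnas 1, with 0.415 FPKM for Ccl11, 1.06 FPKM for Ccl8, 0.746 FPKM for Cxcl16 and 3.49 FPKM for Cxcr4. The others were Ccl2 at 34.9 FPKM in Olig1-Gnas 6 and Ccr1 at 6.53 FPKM in hGFAP-Gnas 3. Between the knockouts, Cxcl5 differed by -1.88 in log2(FPKM + 1), Olig1-Gnas minus hGFAP-Gnas, with limma's adjusted p = 0.0436.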

How the results depend on the processing

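Of members called against Ctrl, 19 in Olig1-Gnas and 20 in hGFAP-Gnas, 12 and 9 were called with a mean of 5 FPKM in a group as filter, and 11 and 8 at an adjusted p under 0.01. Leaving out each library gave 11 to 21 and 7 to 22. The shallower libraries alone gave 7 members in Olig1-Gnas, and the deeper libraries alone gave 0 in hGFAP-Gnas. Over all genes, 8485 calls in Olig1-Gnas became 5141 in the shallower libraries alone, and 5570 in hGFAP-Gnas became 921 at an adjusted p under 0.01, 818 to 8164 with each library left out, 6 in the deeper and 2277 in the shallower libraries alone.

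With the replicate block, 19 members and 8394 genes were called in Olig1-Gnas, 0 members and 0 genes in hGFAP-Gnas, and 0 members and 25 genes between the knockouts. Same-numbered libraries correlated at -0.178 to 0.0511, -0.0975 to 0.124 and -0.172 to 0.254 in these comparisons. Libraries of different numbers were not compared, so pairing by number was neither shown nor excluded.

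Between the knockouts, 1 member and 59 genes were called. The member count was 0 with an offset of 0.1 FPKM, no filter, the filter at 5 FPKM, Y-linked signal as a term, an adjusted p under 0.01, the deeper libraries alone, or Olig1-Gnas 1 and 2 left out together. It was 2 under upper quartile scaling, eBayes without trend or robust, or zeros as missing, 3 with depth class as a term, and 0 to 2 with each library left out. The gene count was 25 with the filter at 5 FPKM and with Olig1-Gnas 1 and 2 left out, 166 with depth class as a term, 3 with Y-linked signal, 10 at an adjusted p under 0.01, 3 in the deeper libraries alone and 11 to 104 with each library left out.

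Cxcl12 in hGFAP-Gnas reversed to 0.0936 without Ctrl 3 (adjusted p = 0.858), and ran from -0.285 to 0.0936 with each library left out. The causes of these changes were not tested. Of all calls, 60.5% were higher in Olig1-Gnas and 67.1% in hGFAP-Gnas, against 51.2% and 49.4% under quantile normalization and 51.2% and 60.7% under upper quartile scaling. These settings put the median fold of all genes at 0.06 and 0.04 in Olig1-Gnas and at -0.01 and 0.07 in hGFAP-Gnas. The depth of the libraries is known only relative to each other.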
